A study of Mus musculus with 12 samples.

Results

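NuRD (nucleosome remodelling and deacetylase) is a chromatin complex that joins a nucleosome remodeller and histone deacetylases in the same assembly. The genes described here are the methyl-CpG binding domain genes Mbd2 and Mbd3, the remodeller Chd4, the deacetylases Hdac1 and Hdac2, the metastasis-associated genes Mta1, Mta2 and Mta3, and the GATA zinc finger domain genes Gatad2a and Gatad2b. They were chosen by symbol. All 10 were found among the 22462 genes of a table of ribosome profiling counts, and all 10 passed the filter on low values that left 11750 genes to test.

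Mouse embryonic stem cells (ESCs) were compared with epiblast-like cells (EpiLCs), the cells they become when the naive state is released. ESCs were kept in Knockout DMEM with fetal bovine serum, LIF and 2i, the MEK inhibitor PD0325901 and the GSK3 inhibitor CHIR99021. For EpiLCs, 400000 ESCs were plated, LIF and 2i were withdrawn 24 hours later, and cells were collected about 56 hours after that. Both cell types gave total RNA libraries and libraries of ribosome protected fragments (RPF), the stretches of mRNA covered by a ribosome, with 3 libraries in each of the 4 groups. The labels name no genetic change and no treatment beyond these media for any group. Per the study's methods the cells are the V6.5 line carrying miR-290-mCherry and miR-302-GFP reporters, so all libraries derive from a single line. The labels number the replicates without saying whether they are separate cultures, and the study calls them biological replicates, so p-values measure the spread between these libraries.

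NuRD exists in mutually exclusive forms because several of its positions are filled by paralogues. A complex holds either MBD2, which binds methylated CpG, or MBD3, whose domain has lost most of that affinity. CHD4 slides nucleosomes, HDAC1 and HDAC2 remove acetyl groups from histone tails, the MTA proteins form the scaffold that holds the deacetylases, and GATAD2A or GATAD2B links the MBD protein to the remodeller. In ESCs the MBD3 form is known for dampening pluripotency genes and for being needed when cells leave self-renewal.

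The total RNA libraries held between 11491044 and 13477432 counted reads for ESCs and between 6188838 and 14655015 for EpiLCs. The RPF libraries held 4777262 to 11359352 for ESCs and 2681439 to 5413144 for EpiLCs. A count of 3 equals 0.20 to 1.14 CPM, the count scaled by the size of its library, across libraries, and the lowest value of any NuRD gene was 7.22 CPM. Such floors cover counting error only, since PCR duplicates are not independent molecules. The cell type labels held against their naive and EpiLC markers. The summed level of 5 naive markers, Zfp42, Esrrb, Klf4, Tbx3 and Nr0b1, lay between 1126 and 1259 CPM in the ESC and between 43.5 and 73.7 CPM in the EpiLC total RNA. For the EpiLC markers Dnmt3b, Otx2, Fgf5 and Pou3f1 it was 106 to 196 CPM and 1105 to 1188 CPM. Pou5f1 and Sox2, listed as shared by both cell types, were lower in EpiLCs, with log2 changes of -0.65 and -2.72 in total RNA. In RPF their changes were -0.50 and -2.96. A list of 6 fibroblast genes moved with cell type too, with sums of at most 2.31 CPM for the ESC and at least 12.8 CPM for the EpiLC total RNA, and of 6.37 to 7.14 CPM against 34.3 to 41.0 CPM in RPF. Of these, Lum was at 0 in every total RNA library, and Lum and Col3a1 were at 0 in every ESC RPF library. Extraembryonic endoderm genes summed to at most 7.03 CPM and mesoderm genes to at most 18.5 CPM in any library. The part of other cells in the NuRD values was not tested, and in bulk samples fewer cells of a type and less RNA per cell cannot be told apart.

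The study the libraries come from followed the ESCC miRNAs, the family of ESC-enriched miRNAs that repress their targets through a shared seed, and the reporters above mark the 2 clusters that encode them. No miRNA was measured in these libraries. Mature sequences of the family are shown because 3 NuRD genes hold a match to the seed in their 3′ UTR. The list may not hold every member. Capitals mark the seed, bases 2 to 8, and the sequences are those of RefSeq (GRCm38.p6). The first 5 share the seed AAGUGCU, and the last 2 differ within the seed in base 8 alone.
miR-291a-3p: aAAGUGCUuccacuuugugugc
miR-294-3p: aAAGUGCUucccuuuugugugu
miR-295-3p: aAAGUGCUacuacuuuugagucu
miR-302b-3p: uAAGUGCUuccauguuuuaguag
miR-302d-3p: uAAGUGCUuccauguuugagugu
miR-290a-3p: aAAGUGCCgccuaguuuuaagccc
miR-291b-3p: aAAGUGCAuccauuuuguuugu

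A match to bases 2 to 7 reads GCACTT on the mRNA strand, the only strand searched, and it stood in the 3′ UTR of 29.9% of 11737 tested genes with a coding sequence in Gencode M21, whose median 3′ UTR was 946 nt. Among NuRD genes it stood once in Mbd2 (base 290 of 480), once in Gatad2a (base 538 of 1374) and 3 times in the long 3′ UTR of Gatad2b (bases 592, 1682 and 1915 of 5405). The match in Mbd2 and the last match in Gatad2b have an A on both sides, which 3.18% of tested genes hold somewhere in the 3′ UTR. The windows of Gatad2a (minus strand) and Gatad2b (plus strand), with the match in capitals, are given on GRCm38.
Gatad2a, chr8:69909289-69909318: gtcatacacagtGCACTTgggcaggctcta
Gatad2b, chr3:90358582-90358611: gagatgttgagtGCACTTaacctgagttgt
Gatad2b, chr3:90359672-90359701: taaagtaagaagGCACTTttaaaattacac
Gatad2b, chr3:90359905-90359934: caaatgtattgaGCACTTaataaaggagca
These are matches of letters and not shown sites of repression. The other 7 genes have no such match in the 3′ UTR examined.

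The NuRD genes spanned a wide range of levels in the same cells. To compare genes, CPM was divided by the kilobases of counted coding sequence. In ESC total RNA Chd4 stood highest with 232 ± 11.1 CPM per kilobase (SD, n = 3), followed by Hdac2 with 216 ± 12.8 and Gatad2a with 208 ± 17.4, and the libraries of these neighbours overlapped. Mta2 (144 ± 5.65), Mbd3 (104 ± 10.004), Mta3 (73.4 ± 6.44), Mta1 (65.3 ± 1.94), Gatad2b (35.9 ± 1.27), Hdac1 (29.2 ± 0.552) and Mbd2 (15.2 ± 0.967 CPM per kilobase) came next, and no neighbours in this lower part of the order overlapped. Chd4 was thus 15.2-fold above Mbd2. Against all tested genes, Chd4 lay at the 95.8 percentile and Mbd2 at the 40.7 percentile of ESC total RNA.

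In EpiLC total RNA the order changed in its middle. Chd4 (280 ± 11.9 CPM per kilobase), Gatad2a (242 ± 8.56) and Hdac2 (179 ± 5.36) led, then Mta1 (133 ± 4.15), Mbd3 (118 ± 3.89) and Mta2 (117 ± 4.79), of which Mbd3 and Mta2 overlapped. Mta3 (64.95 ± 2.52), Gatad2b (32.8 ± 2.73), Hdac1 (19.4 ± 2.68) and Mbd2 (11.6 ± 0.967 CPM per kilobase) followed. Mta1 moved from rank 7 to rank 4, and Mbd2 was last in every group of libraries.

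The order in RPF was not that of the RNA. In ESC RPF Hdac2 (207 ± 26 CPM per kilobase), Chd4 (199 ± 4.86) and Gatad2a (186 ± 9.97) overlapped at the top, Mta2 (148 ± 4.87) came next, Mbd3 (123 ± 5.34) and Mta3 (113 ± 8.25) overlapped, and Gatad2b (78.6 ± 4.06), Mta1 (49.0 ± 2.92), Hdac1 (41.6 ± 2.35) and Mbd2 (6.41 ± 0.597) stood apart from each other. Hdac2 was 32.2-fold above Mbd2 there. In EpiLC RPF the order was Chd4 (252 ± 16.2), Gatad2a (188 ± 4.98), Hdac2 (150 ± 2.85) and Mbd3 (141 ± 4.52), then Mta2 (103 ± 2.87), Mta1 (103 ± 1.79) and Mta3 (102 ± 4.95), which overlapped, then Gatad2b (53.6 ± 3.17), Hdac1 (27.5 ± 1.76) and Mbd2 (15.1 ± 4.66 CPM per kilobase). The span from Chd4 to Mbd2 was 16.6-fold in EpiLC RPF and 24.2-fold in EpiLC total RNA.

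**Figure D1:**
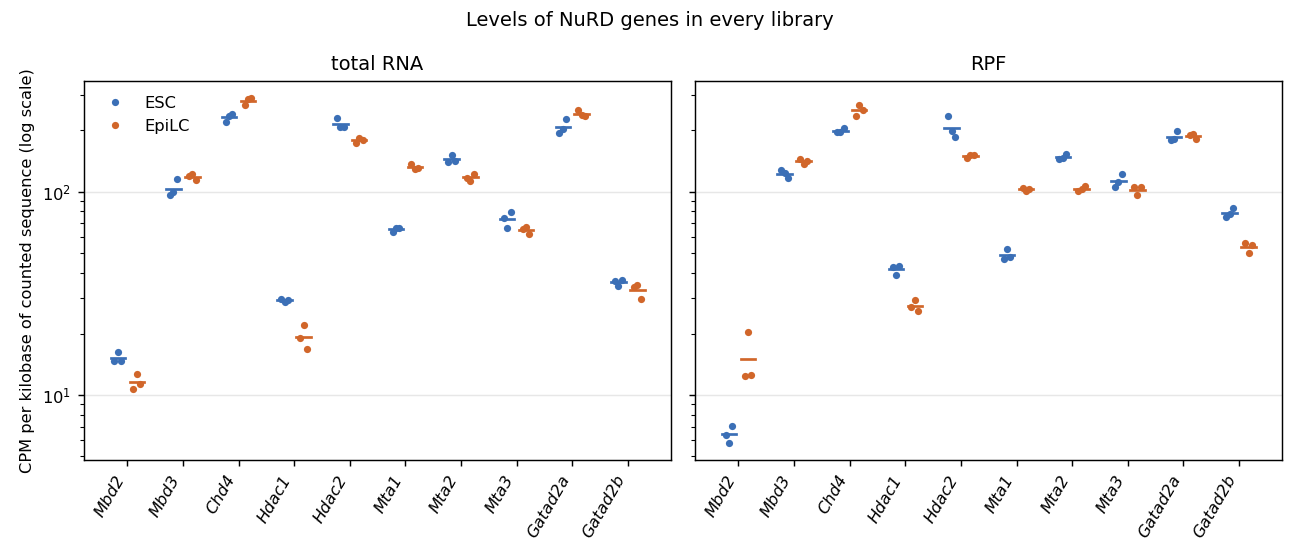
CPM per kilobase of counted sequence (log scale) of each NuRD gene in every total RNA and RPF library of ESCs (blue) and EpiLCs (orange), with a bar at the mean of each 3 libraries. Mbd2 is lowest in all 4 groups, and its RPF level goes from 6.41 to 15.1 CPM per kilobase while its total RNA level goes from 15.2 to 11.6.

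The level of Hdac1 is uncertain for a reason of sequence. Windows of 28 nt from its coding sequence, taken after the first 45 nt, also stand in another annotated transcript for 89.5% of positions, mainly in the processed pseudogene Gm10093 (chr17:78491627-78493030), and only reads with a single mapping position were counted. Hdac1 was therefore counted from a small part of its length, while its CPM was divided by all of it, which lowers its value per kilobase. Its level, its rank among the NuRD genes in all 4 groups, its ratio to Hdac2 and its RPF to total RNA ratio are uncertain. Gm10093 itself took 1.08% to 4.17% of the counts of both genes. The share of 28-nt windows that also stand in another transcript was 1.27% for Mbd3, 0.334% for Chd4 and 0 for the other 7 genes. No NuRD gene shared counted bases with another gene.

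Between ESCs and EpiLCs the NuRD genes moved in both directions in total RNA. At an adjusted p below 0.05 (voom and limma, adjusted over all 11750 genes), with fitted log2 changes given ± SE throughout, Mbd3, Chd4, Mta1 and Gatad2a rose and Mbd2, Hdac1, Hdac2, Mta2 and Mta3 fell. These 4 rises and 5 falls of 10 genes stand beside 34.6% of all tested genes that rose and 30.7% that fell. The ESC and EpiLC libraries did not overlap for 7 of the 10, against 70.3% of all genes. At the stricter limit that also asks for a log2 change above 1 in size, 1 of 10 was called (Mta1), against 24.3% of all genes. The median size of a total RNA change was 0.27 on the log2 scale for the NuRD genes and 0.42 for all genes.

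In RPF, Mbd2, Mbd3, Chd4 and Mta1 rose and Hdac1, Hdac2, Mta2 and Gatad2b fell. For all genes the shares were 31.1% and 28.7%. The groups did not overlap for 8 of the 10 genes, against 63.1% of all genes, and Mbd2 and Mta1 were called at the stricter limit, against 26.0% of all genes. The median size of the RPF change was 0.49 for the NuRD genes and 0.48 for all genes on the log2 scale.

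Translational efficiency (TE) is the ratio of RPF to total RNA, and its change was tested as the interaction of assay and cell type. Mbd2 was the only NuRD gene whose TE changed at an adjusted p below 0.05. That is 1 of 10 genes, where 1.20% of all genes passed, and it also passed the stricter limit, as did 0.255% of all genes. For the other 9 genes the TE change ran from -0.41 to 0.06 on the log2 scale.

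**Figure D2:**
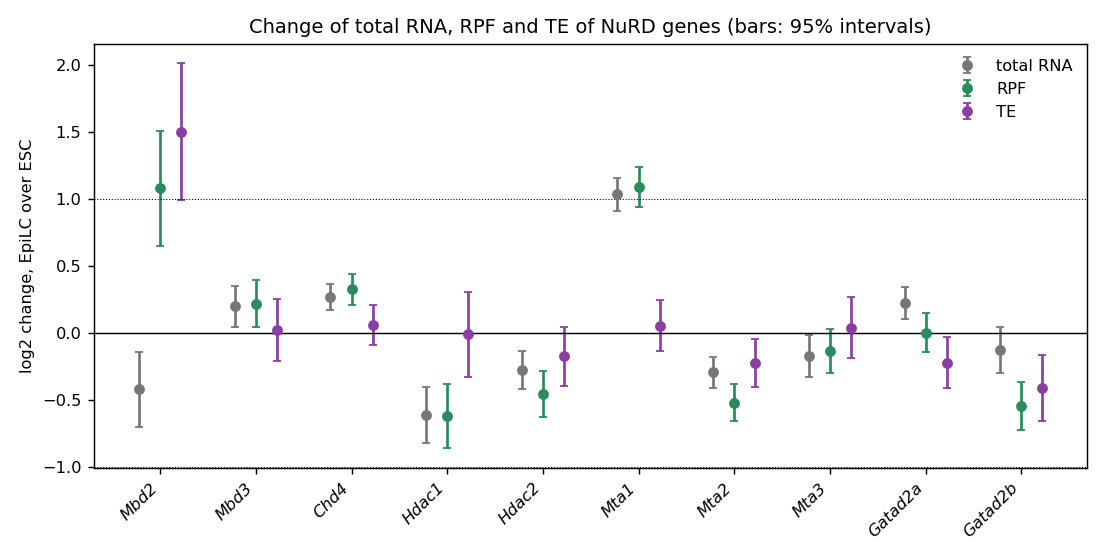
Log2 change from ESC to EpiLC of total RNA (grey), RPF (green) and TE (purple) for each NuRD gene, with points at the fitted change and bars for 95% intervals, and a dotted line at 1. Mbd2 is the gene whose total RNA (-0.42) and RPF (1.08) lie on opposite sides of 0 with both intervals clear of it, and Mta1 rises by about the same amount in both assays.

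Mbd2 (ENSMUSG00000024513.16, chr18:70568462-70622709 from first to last counted base, plus strand, mm10), which encodes the methyl-CpG reader, lost RNA and gained ribosome footprints. In total RNA it had 18.3, 20.3 and 18.1 CPM in the ESC libraries and 13.3, 15.7 and 14.1 CPM in the EpiLC libraries. Every EpiLC library was below every ESC library. The total RNA fell by 0.42 on the log2 scale, with an SE of 0.14 (limma adjusted p = 0.00868).

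In RPF the order was the opposite. Mbd2 had 7.93, 7.22 and 8.70 CPM in ESC libraries 1 to 3 and 15.3, 25.4 and 15.5 CPM in EpiLC libraries 1 to 3. Again the groups did not overlap, and EpiLC library 2 stood above the other EpiLC libraries. The RPF rose by 1.08 ± 0.21 on the log2 scale, a 2.11-fold change (limma adjusted p = 8.45e-05). These values rest on few reads, 62, 34 and 95 RPF counts in ESCs and 74, 67 and 83 in EpiLCs, against 251, 241 and 212 and then 200, 98 and 123 counts in total RNA.

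The TE of Mbd2 rose by 1.498 ± 0.25 on the log2 scale, 2.82-fold, with a 95% interval of 0.99 to 2.01 (limma adjusted p = 0.00210). By p-value it was rank 16 of 11750 genes, and its change lay at the 99.1 percentile. Taking RPF and total RNA libraries of the same number together, as a description, the log2 TE was -1.19, -1.47 and -1.06 in ESCs and 0.21, 0.70 and 0.15 in EpiLCs. Mbd2 thus went from a ratio of 0.437, 0.361 and 0.481 to 1.15, 1.63 and 1.11, with every EpiLC value above every ESC value.

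The Mbd2 TE change was called in all 11 alternative fits on the full set of libraries (1.45 to 1.59) and in all 12 fits that left out a library (1.35 to 1.60). Its RPF change went under the limit of 1 without ESC RPF replicate 2 (0.996), without EpiLC RPF replicate 2 (0.89) and with the GC correction (0.82), where it still passed the test. Its total RNA change no longer passed without EpiLC total RNA replicate 1 (-0.34, limma adjusted p = 0.0831) or in limma-trend (-0.40, adjusted p = 0.0794), and with the GC correction the fall was larger (-0.64, adjusted p = 1.18e-04).

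Mbd3 (ENSMUSG00000035478.14, chr10:80393100-80399186, minus strand), the paralogue of the other NuRD form, changed little. Its total RNA was 86.5, 89.1 and 103 CPM in ESCs and 107, 109 and 102 CPM in EpiLCs, and ESC library 3 overlapped the EpiLC libraries. The RPF was 115, 111 and 105 CPM in ESCs and 131, 123 and 128 CPM in EpiLCs, without overlap. Both assays rose by a small amount, by 0.20 ± 0.07 (limma adjusted p = 0.0217) and 0.22 ± 0.09 (adjusted p = 0.0309) on the log2 scale.

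These small rises of Mbd3 depended on the fit. The total RNA change lost the test in 9 of 12 fits without a library, all but those without ESC total RNA replicate 3 and EpiLC total RNA replicates 2 and 3 (0.14 to 0.27 over the 12 fits). The RPF change lost it without any of the 6 RPF libraries (0.14 to 0.21). With the GC correction the values were 0.10 (limma adjusted p = 0.233) and 0.07 (adjusted p = 0.470). The TE of Mbd3 had a change of 0.02 ± 0.11, with a 95% interval of -0.21 to 0.25, so a change as large as that of Mbd2 lies outside the interval.

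**Figure D3:**
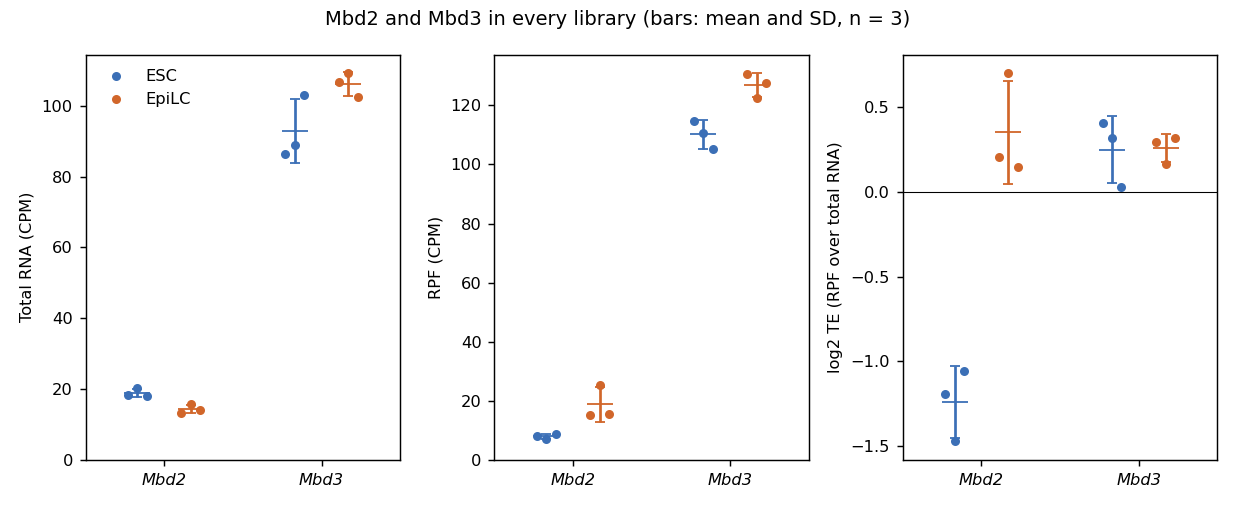
Total RNA (CPM), RPF (CPM) and log2 TE of Mbd2 and Mbd3 in every ESC (blue) and EpiLC (orange) library, with bars for the mean and SD of 3 libraries. Mbd2 total RNA is lower in all 3 EpiLC libraries and its RPF higher in all 3, so that its log2 TE goes from between -1.47 and -1.06 to between 0.15 and 0.70, while the log2 TE of Mbd3 overlaps between the cell types.

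The balance of the MBD paralogues followed the assay. Per kilobase, Mbd2 made up 12.9 ± 1.46% of the summed Mbd2 and Mbd3 total RNA in ESCs and 8.91 ± 0.563% in EpiLCs (SD, n = 3). In RPF its share was 4.98 ± 0.601% in ESCs and 9.66 ± 2.94% in EpiLCs. The log2 ratio of Mbd2 to Mbd3 therefore fell by 0.59 in total RNA and rose by 1.00 in RPF. Neither pair of groups overlapped, and both had p = 0.1 in the two-sided exact permutation test, the smallest value that 3 against 3 libraries allow (adjusted p = 0.125 over 10 paralogue comparisons). Mbd3 remained the larger part in every library.

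Among the scaffold genes, Mta1 had the largest total RNA change of the 10 NuRD genes, and Mta2 moved in the opposite direction. Mta1 (ENSMUSG00000021144.14, chr12:113112163-113136668, plus strand) had 133, 140 and 140 CPM of total RNA in ESCs and 290, 273 and 277 CPM in EpiLCs. Its RPF was 98.3, 110 and 101 CPM in ESCs and 220, 213 and 217 CPM in EpiLCs. In both assays the lowest EpiLC library lay far above the highest ESC library. Mta1 rose by 1.03 ± 0.06 in total RNA (limma adjusted p = 7.34e-14) and by 1.09 ± 0.07 in RPF (adjusted p = 3.26e-12) on the log2 scale, 2.04-fold and 2.12-fold.

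The change of Mta1 total RNA sits at the limit of 1. It was 0.994 to 0.998 without any 1 of the 6 RPF libraries, 0.986 in DESeq2, 0.990 with DESeq2 size factors and 0.99979 without an expression filter, so Mta1 was not called there although it passed the test in each. Its TE change was 0.05 ± 0.09 (95% interval -0.14 to 0.25).

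Mta2 (ENSMUSG00000071646.9, chr19:8943482-8951655, plus strand) went the other way. Total RNA was 276, 296 and 278 CPM in ESCs and 230, 221 and 240 CPM in EpiLCs, and RPF was 284, 287 and 301.9 CPM and then 197, 203 and 208 CPM. No ESC library overlapped an EpiLC library in either assay. Mta2 fell by 0.30 in total RNA, with an SE of 0.06 (limma adjusted p = 6.16e-05), and by 0.52 in RPF, with an SE of 0.07 (adjusted p = 2.89e-07). Its TE change of -0.23 ± 0.09 did not pass (adjusted p = 0.223).

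Mta3 (ENSMUSG00000055817.17, chr17:83708416-83814661, plus strand), first described as an estrogen-dependent member of the family, moved little. Its total RNA ranged from 118 to 141 CPM in ESCs and from 110 to 118 CPM in EpiLCs and fell by 0.17, with an SE of 0.08 (limma adjusted p = 0.0455). The test was lost in 5 of 12 fits without a library, those without ESC total RNA replicates 1 and 3 and without EpiLC total RNA replicates 1, 2 and 3 (-0.18 to -0.12), in edgeR (adjusted p = 0.0543) and in limma-trend (adjusted p = 0.0675). Its RPF, 187 to 215 CPM and then 171 to 187 CPM, had a change of -0.13 ± 0.08 (limma adjusted p = 0.151), and it passed only without ESC RPF replicate 1 (-0.23, adjusted p = 0.0239).

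Within the MTA family the shares of Mta1 and Mta2 changed in both assays. Mta1 made up 23.1 ± 0.344% of the family's total RNA per kilobase in ESCs and 42.1 ± 0.702% in EpiLCs, while Mta2 went from 51.0 ± 1.94% to 37.2 ± 1.29% and Mta3 from 25.9 ± 2.18% to 20.6 ± 0.997%. In RPF the shares of Mta1, Mta2 and Mta3 were 15.8 ± 1.03%, 47.8 ± 0.840% and 36.4 ± 1.12% in ESCs and 33.3 ± 0.527%, 33.5 ± 1.01% and 33.2 ± 0.942% in EpiLCs. The summed total RNA of the family was 283 ± 5.12 CPM per kilobase in ESCs and 315 ± 5.49 in EpiLCs, and the summed RPF was 310 ± 13.3 CPM per kilobase in ESCs and 309 ± 6.79 in EpiLCs. The log2 ratio of Mta1 to Mta2 rose by 1.32 in total RNA and 1.59 in RPF, with no overlap (two-sided exact permutation p = 0.1 each, adjusted p = 0.125). For Mta3 to Mta2 it rose by 0.38 in RPF without overlap (exact permutation p = 0.1). In total RNA that ratio overlapped, with a difference of 0.13 (exact permutation p = 0.4).

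**Figure D4:**
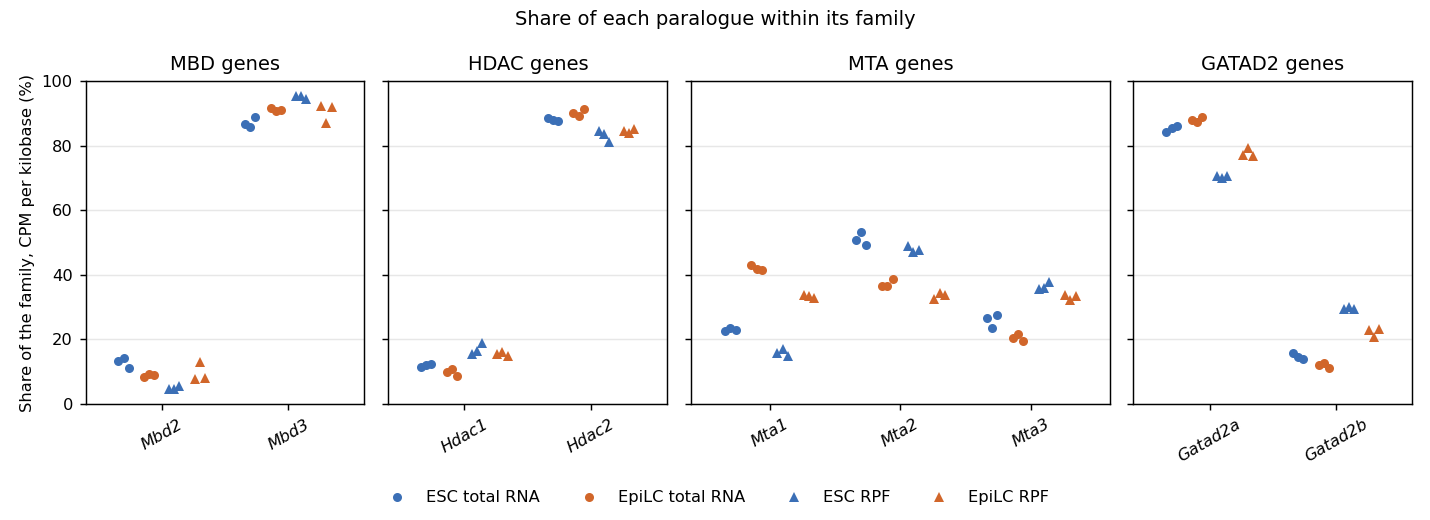
Share of each paralogue in the summed CPM per kilobase of its family (percent) in every total RNA (circles) and RPF (triangles) library of ESCs (blue) and EpiLCs (orange), without error bars. Mta1 goes from 23.1% to 42.1% of the MTA total RNA on average, and the 3 MTA genes lie close to 33% each in EpiLC RPF.

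The promoters of Mta1 and Mta2 are shown because these paralogues differed most in their RNA change. Each runs from 250 bases before to 50 after the RefSeq start (GRCm38.p6, plus strand), with CG pairs in capitals.
Mta1, chr12:113098028-113098327: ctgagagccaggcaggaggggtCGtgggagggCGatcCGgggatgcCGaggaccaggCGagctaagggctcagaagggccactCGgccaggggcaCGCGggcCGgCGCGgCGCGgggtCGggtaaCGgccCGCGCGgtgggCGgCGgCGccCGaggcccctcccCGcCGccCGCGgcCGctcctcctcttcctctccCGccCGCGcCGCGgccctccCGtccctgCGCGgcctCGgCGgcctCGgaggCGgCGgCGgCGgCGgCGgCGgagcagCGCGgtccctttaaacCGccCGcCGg
Mta2, chr19:8941670-8941969: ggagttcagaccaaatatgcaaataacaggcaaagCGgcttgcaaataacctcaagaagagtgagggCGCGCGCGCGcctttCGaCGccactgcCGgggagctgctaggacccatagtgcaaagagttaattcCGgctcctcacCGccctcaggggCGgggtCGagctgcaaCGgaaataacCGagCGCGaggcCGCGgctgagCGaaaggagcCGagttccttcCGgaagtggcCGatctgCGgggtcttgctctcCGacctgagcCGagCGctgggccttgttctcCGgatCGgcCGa
Mta1 has 50 CG pairs and Mta2 30, at the 99.3 and 89.4 percentiles of 32851 mouse promoters of this length, whose median is 7. RefSeq entries were found for 7 of the 10 genes, 10 entries in all, with 16 to 50 CG pairs. TATAAA, searched on both strands, matched in 1 of these 10 entries (Mbd3) and in 13.6% of all promoters. Methylation was not measured here.

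Chd4 (ENSMUSG00000063870.12, chr6:125097211-125130001, plus strand), the ATP-dependent remodeller, rose a little in both assays. Its total RNA was 1256, 1350 and 1377 CPM in ESCs and 1524, 1635 and 1648 CPM in EpiLCs, and its RPF was 1129, 1122 and 1174 CPM and then 1350, 1535 and 1435 CPM. The groups did not overlap in either assay. The rises were 0.27 ± 0.05 in total RNA (limma adjusted p = 2.26e-05) and 0.32 ± 0.05 in RPF (adjusted p = 1.77e-05), with a TE change of 0.06 ± 0.07 whose 95% interval was -0.09 to 0.21.

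Both deacetylase genes fell. Hdac2 (ENSMUSG00000019777.16, chr10:36974797-37001559, plus strand) had 345, 312 and 312 CPM of total RNA in ESCs and 258, 274 and 269 CPM in EpiLCs. Its RPF was 353, 297 and 278 CPM in ESCs, with library 1 the highest, and 219, 227 and 225 CPM in EpiLCs. It fell by 0.28 in total RNA, with an SE of 0.07 (limma adjusted p = 8.99e-04), and by 0.46 in RPF, with an SE of 0.08 (adjusted p = 3.36e-05), and the groups did not overlap.

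Hdac1 (ENSMUSG00000028800.15, chr4:129516609-129542584, minus strand), counted from few unique positions as given above, had 41.6, 40.1 and 41.2 CPM of total RNA in ESCs and 26.9, 31.2 and 23.7 CPM in EpiLCs. Its RPF was 60.1, 54.5 and 60.4 CPM and then 38.1, 41.4 and 36.5 CPM. The fall was 0.61 in total RNA, with an SE of 0.10 (limma adjusted p = 8.38e-06), and 0.62 in RPF, with an SE of 0.12 (adjusted p = 5.29e-05). No library overlapped in either assay. The log2 ratio of Hdac1 to Hdac2 fell by 0.32 in total RNA without overlap (exact permutation p = 0.1), and in RPF the difference of -0.14 had overlapping libraries (exact permutation p = 0.4). Neither gene changed in TE at the threshold, with -0.01 ± 0.15 for Hdac1 and -0.18 ± 0.11 for Hdac2.

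The GATAD2 pair differed in how RNA and footprints moved. Gatad2a (ENSMUSG00000036180.15, chr8:69909844-69935990, minus strand) had 364, 382 and 427 CPM of total RNA in ESCs and 472, 449 and 440 CPM in EpiLCs, with every EpiLC library higher. It rose by 0.22 ± 0.06 in total RNA (limma adjusted p = 0.00174). Its RPF, 337 to 372 CPM in ESCs and 342 to 360 CPM in EpiLCs, overlapped, with a change of 0.0016 ± 0.07 and a 95% interval of -0.14 to 0.15.

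Gatad2b (ENSMUSG00000042390.9, chr3:90341702-90358002, plus strand) had 63.4, 59.9 and 64.0 CPM of total RNA in ESCs and 59.2, 60.3 and 51.6 CPM in EpiLCs, which overlap, with a change of -0.13 ± 0.08 (limma adjusted p = 0.169). Its RPF was 130, 136 and 144 CPM in ESCs and 97.0, 86.9 and 95.7 CPM in EpiLCs, without overlap. The RPF fell by 0.55, with an SE of 0.09 (adjusted p = 6.69e-06). Its TE change was -0.41 ± 0.12 and lay at the 9.13 percentile, and it did not pass (adjusted p = 0.0851, 0.0581 to 0.197 in the fits without a library). The log2 ratio of Gatad2a to Gatad2b rose by 0.35 in total RNA and 0.57 in RPF, without overlap (exact permutation p = 0.1 each, adjusted p = 0.125).

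Of the 3 genes with a seed match in the 3′ UTR, the TE change was thus 1.498 for Mbd2, -0.22 for Gatad2a and -0.41 for Gatad2b. The total RNA change was -0.42, 0.22 and -0.13. They did not share a direction in either measure, but not all of these changes passed. In TE Gatad2a (limma adjusted p = 0.262) and Gatad2b did not pass, and in total RNA Gatad2b did not. An effect of miRNAs on these genes was not tested.

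The TE level within a cell type also differed between NuRD genes. Each library was scaled to its own size, so a log2 TE of 0 does not mean equal amounts of RPF and RNA. It lies near the median of all genes, which was -0.021 in ESCs and -0.015 in EpiLCs. In ESCs, Gatad2b carried the most RPF for its RNA, with a log2 TE of 1.14 ± 0.08 (SE, 94.2 percentile of all genes), and Mbd2 the least, with -1.21 ± 0.18 (10.4 percentile). These 2 of 10 genes were called as different from a log2 TE of 0 at the stricter limit, against 21.4% of all genes. Mta3 (0.63 ± 0.07), Hdac1 (0.52 ± 0.09) and Mbd3 (0.25 ± 0.08) lay above 0, and Mta1 (-0.43 ± 0.07), Chd4 (-0.21 ± 0.05) and Gatad2a (-0.15 ± 0.06) lay below. For Hdac2 (-0.07 ± 0.07) and Mta2 (0.04 ± 0.06) the difference did not pass, so that 8 of 10 passed, against 67.5% of all genes.

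In EpiLCs none of the 10 was called for its TE level by limma at the stricter limit, against 23.8% of all genes, while 9 of 10 passed at an adjusted p below 0.05, as did 64.3% of all genes. The log2 TE was 0.72 ± 0.09 for Gatad2b, 0.67 ± 0.08 for Mta3, 0.51 ± 0.12 for Hdac1, 0.27 ± 0.08 for Mbd3, -0.16 ± 0.05 for Chd4, -0.19 ± 0.07 for Mta2, -0.25 ± 0.08 for Hdac2, and -0.37 ± 0.06 for Mta1 and -0.37 ± 0.07 for Gatad2a. Mbd2, the gene that did not pass, had 0.29 ± 0.17 (limma adjusted p = 0.146), at the 64.6 percentile. The value for Hdac2 turned to 0.44 in ESCs and 0.42 in EpiLCs, past the test, with a correction for GC content, and its coding sequence has 42.3% GC, at the 4.67 percentile of tested genes. Some of these tests depended on the fit. Gatad2a in ESCs lost the test in DESeq2 (-0.12) and with DESeq2 size factors (-0.11), as did Chd4 in EpiLCs (-0.099 and -0.10) and Mta2 in EpiLCs (-0.13 in both), and Mbd3 in EpiLCs lost it with the GC correction (0.16, limma adjusted p = 0.0923). Among fits without a library, the test was lost by Gatad2a in ESCs without ESC RPF replicates 1 and 2, ESC total RNA replicate 3 or any EpiLC RPF library (-0.13 to -0.087). In EpiLCs it was lost by Chd4 without EpiLC RPF replicates 1 and 3 (-0.089 and -0.13), by Hdac2 without EpiLC RPF replicate 1 (-0.21), and by Mta2 without any EpiLC RPF library or EpiLC total RNA replicate 3 (-0.18 to -0.14). Hdac2 in ESCs passed without ESC RPF replicate 1 (-0.15) and turned to 0.032, not passing, without ESC RPF replicate 3.

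Over all 12 libraries, the genes whose log2 CPM followed Mbd2 most closely were Lgals4 (Pearson's r = 0.91), Cit (0.90) and Ubr2 (0.88), and a single gene exceeded 0.9. For Mbd3 they were Rhoc (0.95), Id3 (0.95) and Tceal8 (0.95), with 120 genes above 0.9. These values describe 12 points that share 4 groups, so they carry no p-value.

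Of the other NuRD subunits, 4 of 5 could be tested. Chd3, a remodeller that can take the place of CHD4, rose from 56.3 ± 3.86 to 121 ± 9.14 CPM in total RNA (SD, n = 3), by 1.10 ± 0.08 on the log2 scale (limma adjusted p = 5.66e-12), and by 0.91 ± 0.14 in RPF. It remained far below Chd4, at 19.8 against 280 CPM per kilobase in EpiLC total RNA. The histone chaperone gene Rbbp4 fell by 0.23 in total RNA (adjusted p = 9.66e-04) and 0.18 in RPF (adjusted p = 0.0135). Rbbp7, its paralogue, had changes of 0.09 and -0.02, which did not pass. Chd5 had 0.10 in total RNA, which did not pass, and rose by 0.48 ± 0.18 in RPF (adjusted p = 0.0283). None of the 4 passed for TE in limma, where the changes ran from -0.19 to 0.38. Cdk2ap1 was below the filter.

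Of 11 tested factors that bind or recruit NuRD, 5 rose and 2 fell in total RNA, with a median of 0.08, beside the 34.6% and 30.7% of all genes given above, which are the background of the counts that follow too. Bcl11a, a zinc finger repressor, had the largest rise, from 0.443 ± 0.359 to 11.4 ± 1.79 CPM (4.92 ± 0.54 on the log2 scale), a fold that rests on few ESC reads. Bcl11a passed the filter only through its EpiLC libraries. So did Bcl11b, another of the 5 rises, which went from 1.64 ± 1.01 to 14.5 ± 1.59 CPM. The count of rises thus includes genes that the filter kept for their EpiLC level. Zfp296, a zinc finger protein of pluripotent cells, had the largest fall, from 50.3 ± 4.70 to 8.14 ± 0.715 CPM (-2.62 ± 0.15). In TE, 2 of the 11 fell, Bend3 by 0.71 (limma adjusted p = 0.0141) and Adnp by 0.40 (adjusted p = 0.0443), both named after their values were seen. Of all genes 1.20% passed for TE in either direction, which is the background of the TE counts that follow too.

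A list of 8 other genes held methyl-CpG binding proteins and genes named for the methyl-CpG binding domain. Of these, 1 rose and 3 fell in total RNA, and none passed for TE in limma (smallest adjusted p 0.0756, Uhrf1). Zbtb33, which encodes Kaiso, rose by 1.09 ± 0.12, and Uhrf1, which recruits the maintenance methyltransferase, fell by 1.22 on the log2 scale, from 788 ± 9.83 to 337 ± 14.6 CPM. Of 19 tested genes of other complexes built on HDAC1 and HDAC2 (Sin3, CoREST, MIER), 4 rose, 6 fell and 9 did not pass in total RNA. None was called with a change above 1 in size, against 24.3% of all genes. Of 9 other histone deacetylase genes 4 rose and 1 fell, led by Hdac9 (2.86 ± 0.47, from 0.689 to 4.65 CPM). The fold of Hdac9 rests on few ESC reads, and it passed the filter only through its EpiLC libraries. Of 7 other CHD genes 4 rose and 1 fell, led by Chd9 (1.80 ± 0.07, from 243 ± 22.8 to 847 ± 42.4 CPM). No gene of these last 3 lists passed for TE in limma.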

How the data were processed

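Ribosome protected fragments and total RNA were sequenced from ESCs and EpiLCs with the TruSeq Ribosome Profiling kit, with 12 libraries in 4 groups taken from the labels. The authors deposited raw read counts per gene. Per the study's methods and the submitters' processing notes, reads were trimmed with cutadapt 1.14, with limits on read length, aligned uniquely to mm10 with STAR 2.5.3a and counted with featureCounts 1.5.3 by the 5′ end on the sense strand of Gencode M14 coding sequence without its first 45 nt. Unique alignment lowers genes with near copies. The handling of PCR duplicates is not given in the sources used here. No count column lacked a sample (0).

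Genes with at least 3 CPM in at least 3 libraries were kept (11750). Counts were scaled by TMM (edgeR 4.0.16) and fitted with voom and limma 3.58.1 in R 4.3.3, in 1 model of 4 groups without a block, and p-values were Benjamini-Hochberg adjusted over all tested genes. CPM values use the TMM library sizes. A gene passed at an adjusted p below 0.05 and was called when its log2 change also exceeded 1 in size. Ratios of paralogues were compared by the exact permutation test. All pairs of replicates differed by more than sampling noise (chi-square per degree of freedom 2.46 to 7.19 over 12 pairs). Each library counted as 1 sample. This spread cannot tell separate cultures from separate preparations of the same culture. The procedure was tested on simulated data. Alternatives were edgeR's quasi-likelihood test, DESeq2 1.42.0, limma-trend, other scalings and filters, blocks, a correction for the GC content of the longest Gencode M21 coding sequence, and leaving out each library. Sequence features come from Gencode M21 transcripts and RefSeq tables of the same assembly.

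The NuRD genes and 6 lists of related genes were chosen with earlier results of these data known. All NuRD genes and all tested other NuRD subunits are named, and from each other list the called genes with the largest rise and fall in total RNA. Bcl11b is named in addition for the filter, and Bend3 and Adnp for TE. For Mbd2 and Mbd3 the 3 genes of highest correlation are named.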

Additional observations from a re-analysis of the deposited data

Results flagged for a closer look

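The change of Mbd2 from ESC to EpiLC differed between the assays. Its RPF rose by 1.08 and its total RNA fell by 0.42 on the log2 scale, and the difference, the interaction of assay and cell type, was 1.498 (SE 0.25, limma adjusted p = 0.00210 over 11750 genes). The RPF was higher in 3 of 3 EpiLC libraries than in any ESC library, and the total RNA lower in 3 of 3. The RPF counts behind it were 34 to 95 per library. No explanation was tested.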

How the results depend on the processing

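Of 315 recomputed values of the main comparisons, 298 stayed close. For a count this means within 1.5 times its reported value. For a difference in paralogue ratio it means a shift below the mean SD of the groups compared. The 298 include the replicate block of each of the 10 paralogue comparisons. That block gives the reported difference by construction, so its agreement carries no information. Counts of NuRD genes passing the test still ran from 6 to 9 in total RNA (9 reported, 6 without EpiLC total RNA replicate 1), from 7 to 8 in RPF (8 reported), and for the TE level from 7 to 9 in ESCs (8 reported) and from 6 to 9 in EpiLCs (9 reported, 6 without EpiLC RPF replicate 1). The cause of the other changes was not tested, beyond what each setting removes. The count of NuRD genes called in total RNA went from 1 to 0 in DESeq2, with DESeq2 size factors and without an expression filter (0 to 1 over fits without a library). In RPF it went from 2 to 1 with the GC correction, alone or with the replicate block (1 to 2 over fits without a library). With no fold limit the counts were 9 in total RNA, 8 in RPF, and 8 and 9 for the TE level in ESCs and EpiLCs.

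Of 1150 recomputed values of single NuRD genes, 1058 kept their direction and their side of the threshold, 55 lost and 2 gained the test, and 35 changed sign. Gatad2a RPF became -0.021 in DESeq2, -0.026 with its size factors, -0.027 without a filter and -0.11 with the GC correction, with or without the replicate block (-0.073 to 0.021 without a library). Hdac1 TE became 0.0014 in DESeq2, 0.0024 in limma-trend, 0.0015 with size factors, 0.018 on total counts, 0.011 with at least 10 counts everywhere and 0.013 with either GC correction (-0.095 to 0.050 without a library). Mbd3 TE became -0.027 under the GC correction and -0.026 once the block was added (-0.056 to 0.072 without a library), and Mta3 TE ran from -0.020 to 0.11 without a library. The TE level of Mta2 in ESCs became -0.028 on total counts. That of Hdac2 became 0.44 in ESCs (-0.15 to 0.032 without a library) and 0.42 in EpiLCs with either GC correction. Mbd3 total RNA and RPF lost the test in DESeq2 (adjusted p = 0.107 and 0.0627), with its size factors, without a filter and with the GC correction.

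Same-numbered ESC and EpiLC libraries did not deviate together (r = -0.017 to 0.039), and the study does not tie them. The RPF and total RNA libraries of a cell type, which the study calls matched, deviated together little or not at all for equal numbers. For numbers 1 to 3, r was -0.17, 0.093 and 0.092 in ESCs and 0.12, -0.017 and 0.045 in EpiLCs. With the replicate block the Mbd2 TE change was 1.495 (limma adjusted p = 9.67e-04), and with RPF and matched total RNA joined as a culture block it was 1.498 (adjusted p = 0.00121). Neither block alone changed a call of a NuRD gene. Depth limits Mbd2 most, with 34 to 95 RPF counts per library.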
